A study of Brassica napus with 9 samples.

Results

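The cruciferin genes described here are the 4 genes of Brassica napus (rapeseed) that the study names as cruciferins, out of 91830 genes counted. They were taken by identifier, but the study lists them among its most changed genes in these libraries, so a change with stage or line is no independent evidence. BnaA01g08350D and BnaC01g09900D are copies most similar to the Arabidopsis cruciferin 3 gene AT4G28520, and BnaA10g02240D and BnaC05g02160D are copies most similar to cruciferin 2, AT1G03880. Rapeseed is an allotetraploid, and each pair holds a copy of the A and a copy of the C subgenome, as the identifiers state. The study followed RNA of whole pods with their developing seeds in 9 libraries, from 3 lines sampled on days 8, 25 and 45. Stages are given as DAF, which stands for days after flowering in the study and for days after fertilization in the sample labels. The lines were the wild-type cultivar Youngsan, and CpFatB4 and CpFatB5, each a homozygous T4 transgenic line in the Youngsan background that carries a Cuphea acyl-ACP thioesterase gene driven by the rapeseed napin promoter, which is active in seeds. A library was made from 3 RNA preparations mixed in equal amounts, so a line at a given stage is represented by a single library (n = 1), and the difference of any 2 libraries could not be tested. Whole pods contain pod wall, seed coat and embryo, and more RNA per embryo cell cannot be told apart from a larger share of embryo in the pod.

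Cruciferins are legumin-type 12S globulins of the cupin family. They are made in the maturing embryo as precursors that are cleaved inside the vacuole and stored as large assemblies in protein storage vacuoles, and they are broken down after germination to feed the seedling. Napins, the 2S albumins, are the other main storage proteins of rapeseed, while oleosins coat the oil bodies. The storage protein genes are known to be switched on during seed filling by a network of regulators that includes ABI3, FUS3, LEC1 and LEC2.

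The library totals ranged from 19338876 counts (CpFatB5 at 45 DAF) to 44129720 counts (Youngsan at 25 DAF), as the mean of 2 deposited count columns per library. The paired columns differed by less than counting noise: the squared difference over the sum averaged 0.404 to 0.521 in the 9 libraries, where independent counts would average 1, and it was at most 3.32 for any single cruciferin value. The columns were therefore counted as 1 measurement. The transgenes themselves were not analysed here. Values below are normalized counts, which are counts divided by a size factor for the depth of the library. Intervals are 95% Wilson intervals that cover counting error only.

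The cruciferin genes were close to silent in young pods and were among the 83 genes with most counts in each line at 25 DAF. At 45 DAF they lay 14.1-fold to 49.2-fold higher in the CpFatB4 library than in the CpFatB5 library. That gap was narrower with total-count scaling, as given below. The cruciferin 3 copies were at least 3.77-fold higher at 45 than at 25 DAF in each line. The cruciferin 2 copies were 7.44-fold to 7.47-fold higher in CpFatB4 and 1.45-fold higher in Youngsan, while in CpFatB5 their direction depended on the scaling. Their proportion therefore shifted toward cruciferin 3 at 45 DAF, most in the CpFatB5 library.

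BnaA01g08350D, the A copy of cruciferin 3, had 30 normalized counts at 8 DAF, 101949 at 25 DAF and 387583 at 45 DAF in Youngsan. In CpFatB4 the values were 14, 296814 and 2707171, and in CpFatB5 they were 128, 28120 and 191612. The CpFatB4 library was thus the lowest of the lines at 8 DAF and the highest at the later stages, and the CpFatB5 library was the reverse. BnaC01g09900D, the C copy, followed the same course, with 31, 95609 and 360329 for Youngsan, 14, 276525 and 2537564 for the CpFatB4 line, and 123, 26572 and 179026 for the CpFatB5 line.

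BnaA10g02240D, the A copy of cruciferin 2, had 19, 80968 and 117698 normalized counts at 8, 25 and 45 DAF in Youngsan. The CpFatB4 libraries had 13, 131537 and 982394, and the CpFatB5 libraries had 54, 23257 and 19985. The C copy BnaC05g02160D had 19, 79912 and 115528 for Youngsan, 13, 129639 and 964449 for the CpFatB4 line, and 53, 22873 and 19700 for the CpFatB5 line. At 25 and 45 DAF no value of either pair in a CpFatB5 library reached that of the same gene and stage in Youngsan, and no Youngsan value reached that of CpFatB4.

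**Figure D1:**
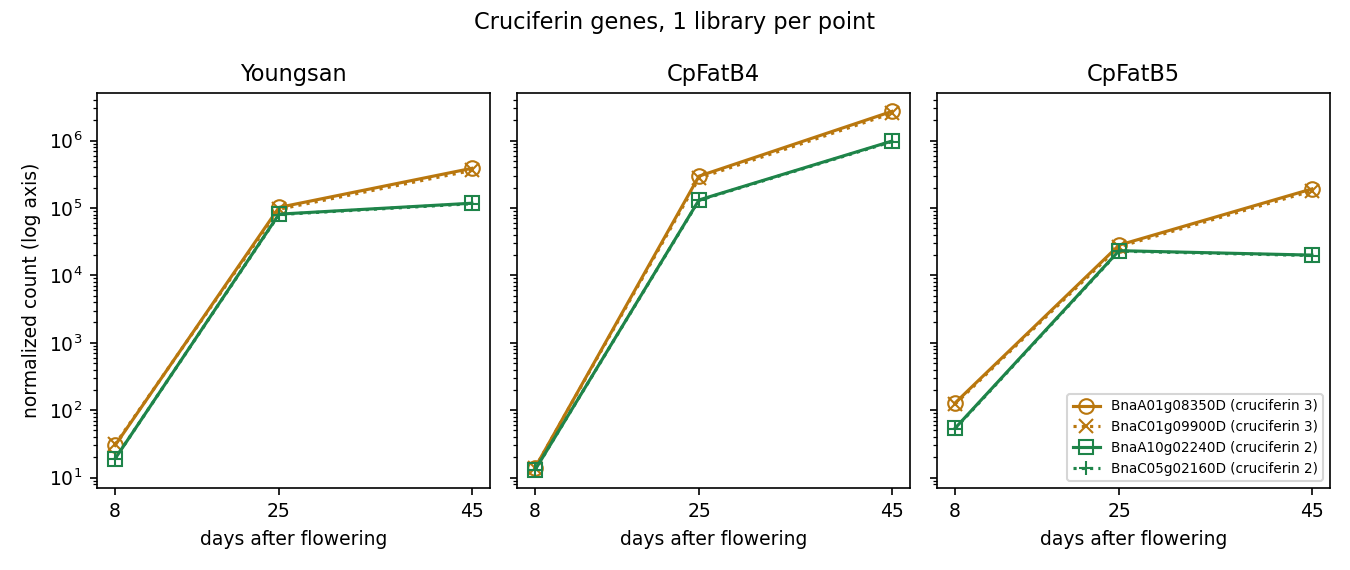
Normalized counts (log axis) of the 4 cruciferin genes against days after flowering, with a panel for each line and 1 library per point. The A and C copies of each pair overlap, and at 45 DAF BnaA01g08350D reached 2707171 in CpFatB4 while BnaA10g02240D stayed at 19985 in CpFatB5.

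The A and C copies of a pair could hardly be distinguished. In the 6 libraries of 25 and 45 DAF, the A copy of cruciferin 3 had between 1.06 and 1.08 times the count of the C copy, with an interval above 1 in 6 of 6 libraries. The A copy of cruciferin 2 had between 1.01 and 1.02 times the count of its C copy, with an interval above 1 in 5 of 6 libraries. At 8 DAF the ratios ran from 0.976 to 1.04 and from 1 to 1.03, and every interval covered 1. Reads were mapped on coding sequences, and how reads that match both copies were counted is not stated. The copies are therefore not independent measurements, and whether a single copy carried the signal cannot be told from these counts.

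The ranking of the libraries differed between the pairs. For the cruciferin 3 copies the order from the highest was CpFatB4 at 45 DAF, Youngsan at 45 DAF, CpFatB4 at 25 DAF, CpFatB5 at 45 DAF, Youngsan at 25 DAF and CpFatB5 at 25 DAF, followed by the libraries of 8 DAF. With size factors from genes of at least 1000 counts, CpFatB5 at 45 DAF (512674 for the sum of the pair) moved above CpFatB4 at 25 DAF (468102). For the cruciferin 2 copies the CpFatB4 library of 25 DAF stood above the Youngsan library of 45 DAF, and the CpFatB5 library of 45 DAF came below all other libraries of 25 and 45 DAF. Neither held with size factors from genes of at least 1000 counts, where the sum of the pair was 213235 in CpFatB4 at 25 DAF against 232821 in Youngsan at 45 DAF, and 54893 in CpFatB5 at 45 DAF against 39901 at 25 DAF. At the bottom of the order, the counting interval of the cruciferin 2 difference between CpFatB4 and Youngsan at 8 DAF covered 0 for both copies (log2 fold change of BnaA10g02240D -0.54, from -1.41 to 0.32).

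As a share of all counts, the 4 genes together went from 0.000356% to 1.00% and 2.52% in Youngsan from 8 to 25 and 45 DAF. In CpFatB4 they took 0.000197%, 2.25% and 13.2%, and in CpFatB5 0.00125%, 0.306% and 1.09%. A count that was given to both copies would enter these sums more than once. The 5 copies like AT5G44120, the Arabidopsis gene of another 12S globulin, are not in these sums. They took 3.12%, 8.61% and 2.01% of all counts at 45 DAF in Youngsan, CpFatB4 and CpFatB5, so the 4 genes are not all 12S globulin counts. By count, which grows with gene length, the cruciferin 3 copies ranked 1 and 2 among all genes in the CpFatB4 libraries of 25 DAF and 45 DAF, and 3 and 4 in the Youngsan library of 45 DAF. In the CpFatB5 library of 45 DAF they ranked 11 and 12, while the cruciferin 2 copies ranked 174 and 176, against 12 and 14 in Youngsan at that stage.

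**Figure D2:**
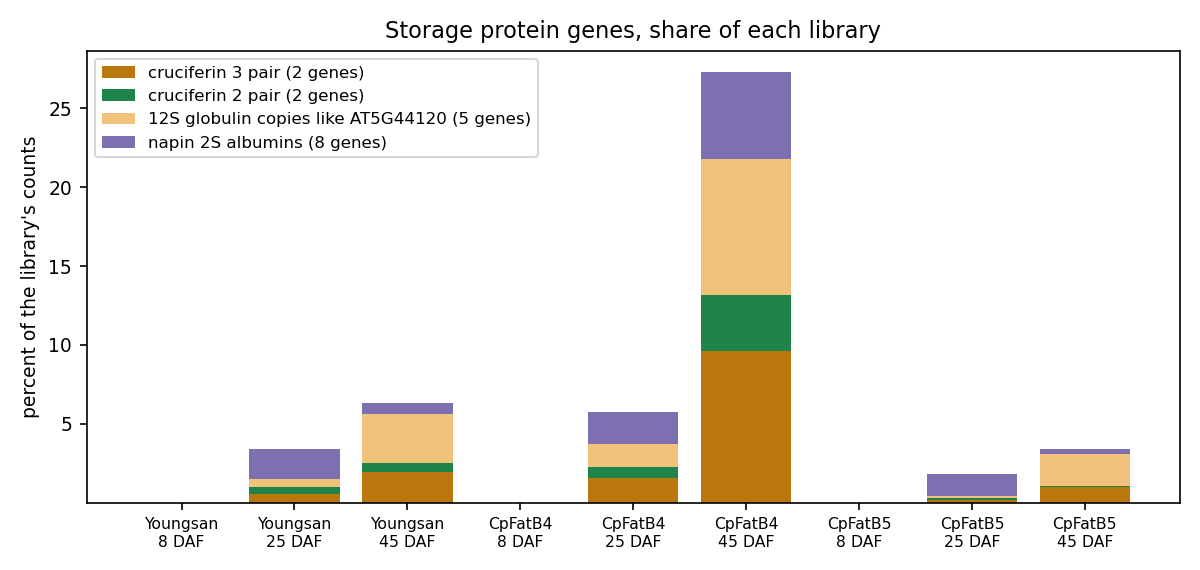
Stacked bars of the percent of each library's counts taken by the cruciferin 3 pair, the cruciferin 2 pair, the 12S globulin copies like AT5G44120 and the listed napins. The CpFatB4 library of 45 DAF stands apart, with 13.2% of its counts in the 4 cruciferin genes, and the bars of 8 DAF are too low to be seen.

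The first comparison asked how the genes changed between 8 and 25 DAF, when seed filling begins. All 4 genes rose: with limma on all 9 libraries and the line as a block, the log2 fold changes were 11.65 ± 1.09 (SE) for BnaA01g08350D, 11.58 ± 1.08 for BnaC01g09900D, 11.83 ± 1.07 for BnaA10g02240D and 11.83 ± 1.06 for BnaC05g02160D. The adjusted p-values of limma ran from 5.68e-05 to 7.06e-05. Among the 73312 genes in that fit 20.9% were called higher and 22% lower at 25 DAF, so the count of called members says little beside the size of the change. For each pair of libraries, a gene was also called where it had a log2 fold change of 1 or more in size and a mean normalized count of 1000 or more (200 for the Youngsan and CpFatB4 libraries of 25 DAF), after the thresholds of the study and with no test. All 4 genes passed this rule upward in each line, beside 19.2% of the genes over the minimum for Youngsan, 21.2% for CpFatB4 and 18.6% for CpFatB5. The shares called lower were 8.14%, 7.41% and 9.06%.

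The size of that rise differed between the lines. BnaA01g08350D rose 3388-fold in Youngsan and 20892-fold in CpFatB4 but 220-fold in CpFatB5. The spread came from both ends: at 8 DAF the gene had 14 normalized counts in CpFatB4 and 128 in CpFatB5, and at 25 DAF it had 296814 and 28120. For the cruciferin 2 copy BnaA10g02240D the folds were 4243, 10055 and 428 in the same order. The other storage genes rose at the same time: 8 of 8 listed napins, 15 of 15 oleosins and 5 of 5 12S globulin copies like AT5G44120 (the Arabidopsis gene of another 12S globulin) passed the test upward, with median log2 fold changes of 10.90, 10.51 and 11.55, against a median of -0.01 over all genes in the fit. Of the 6 copies of vicilin-like 7S globulins, 4 rose (median 11.95). The 7S and AT5G44120-like copies and 5 of the 8 napins come from the study's tables of the most changed genes in these libraries, so their counts are no independent evidence of a direction. The 25 listed regulator copies are of ABI3, FUS3, LEC1, LEC2, bZIP67, ABI4 and WRI1. Of these, 24 were tested and 24 rose. Among them was the ABI3 copy BnaA03g37510D, a transcription factor of seed maturation (10.04 ± 0.43, adjusted p = 2.78e-06 by limma).

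From 25 to 45 DAF, when seeds pass from filling to desiccation, the pairs parted. The cruciferin 3 copy BnaA01g08350D rose by a log2 fold change of 1.93 (from 1.92 to 1.94) in Youngsan, 3.19 (from 3.18 to 3.19) in CpFatB4 and 2.77 (from 2.75 to 2.79) in CpFatB5. The cruciferin 2 copy BnaA10g02240D changed by 0.54 (from 0.53 to 0.55) for Youngsan, 2.90 (from 2.89 to 2.91) for CpFatB4 and -0.22 (from -0.25 to -0.19) for CpFatB5. With size factors taken only from genes of at least 1000 mean counts, the median of the cruciferin 2 copies in CpFatB5 turned to 0.46, and the median of all genes in that comparison moved by 0.68. The call rule was passed upward by 2 of 4 genes in Youngsan, 4 of 4 in CpFatB4 and 2 of 4 in CpFatB5, where 23.4%, 11.6% and 18.9% of the genes over the minimum were called higher and 21.1%, 15.5% and 32.8% lower.

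The stage effect shared by the lines was not called for any of the 4 genes by limma. BnaA01g08350D had 2.64 ± 1.09 (adjusted p = 0.0741), BnaC01g09900D 2.63 ± 1.09 (0.0735), BnaA10g02240D 0.99 ± 1.07 (0.466) and BnaC05g02160D 0.99 ± 1.06 (0.465), all log2 fold changes of 45 against 25 DAF with their SE and adjusted p. The unadjusted p of the 2 cruciferin 3 copies was 0.0396 and 0.0393, and 18.1% of the genes in the fit were called higher and 30.3% lower. The values of 8 DAF enter this fit as residual spread: without those 3 libraries, an alternative added after the data were seen, the cruciferin 3 copies passed (adjusted p = 0.00211 and 0.00216) and the cruciferin 2 copies did not (0.221 and 0.222). Without the CpFatB4 libraries the cruciferin 3 copies also passed, with adjusted p = 0.032 and 0.0297 by limma, and the cruciferin 2 copies had a log2 fold change of 0.11. The cruciferin 3 copies did not pass without the Youngsan libraries (adjusted p = 0.214 and 0.212 by limma). Nor did they pass without the CpFatB5 libraries (0.0624 and 0.0658).

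Other storage genes gave the frame for this difference. All 5 of the 12S globulin copies like AT5G44120 and all 15 oleosins passed the limma test upward at 45 DAF, with medians of 3.22 and 3.07, against a median of -0.17 over all genes in the fit. None of the 8 napins passed it in either direction (median -0.61), and 2 of 6 vicilin-like 7S copies passed upward (0.80). By the call rule for pairs of libraries, 4 of 8 napins were lower in Youngsan (median -1.43) and 6 of 8 lower in CpFatB5 (-2.19). Only 6 of the 8 reached the minimum in each of these lines. In CpFatB4 all 8 reached it and 6 were higher (1.86). Of all genes over the minimum 21.1% were called lower in Youngsan, 32.8% lower in CpFatB5 and 11.6% higher in CpFatB4. The cruciferin 2 copies thus lay between the napins and the other 12S globulins in Youngsan and CpFatB5.

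**Figure D3:**
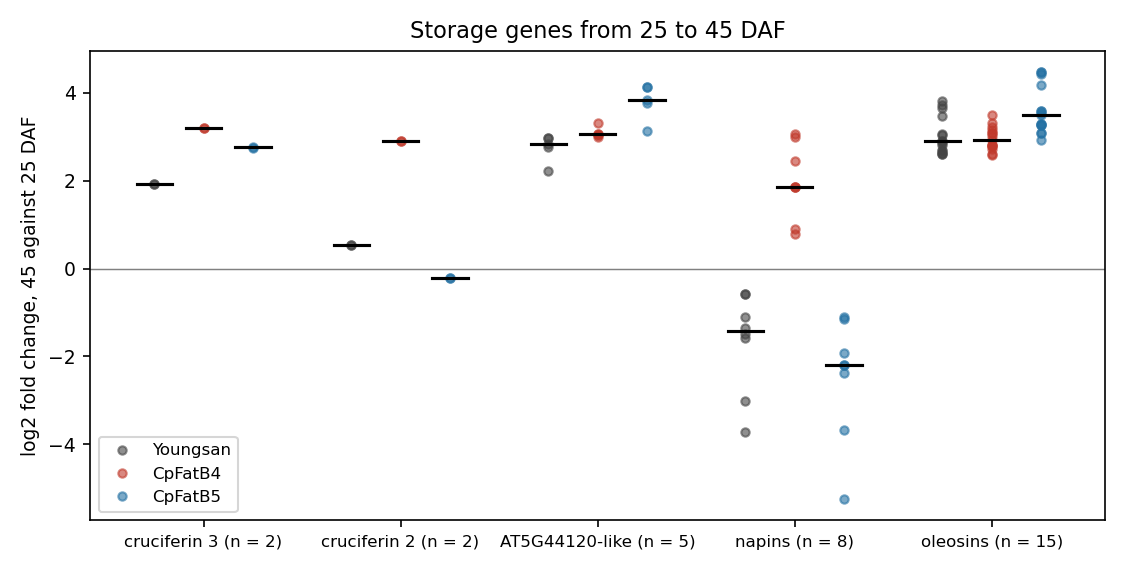
Log2 fold change of 45 against 25 DAF for each gene (points) of 5 groups of storage genes, with the median as a bar, by line. In CpFatB5 the cruciferin 3 copies lie at 2.77 and 2.75 and the cruciferin 2 copies at -0.22 (0.46 with size factors from genes of at least 1000 counts), between the napins below and the AT5G44120-like copies and oleosins above.

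Within a library, the ratio of cruciferin 3 to cruciferin 2 counts needs no scaling between libraries. For Youngsan it was 1.61 (from 1.14 to 2.28) at 8 DAF, 1.23 (from 1.22 to 1.24) at 25 DAF and 3.21 (from 3.19 to 3.22) at 45 DAF. For CpFatB4 it was 1.07 (from 0.679 to 1.69), 2.20 (from 2.19 to 2.20) and 2.69 (from 2.69 to 2.70), and in CpFatB5 2.34 (from 1.89 to 2.90), 1.19 (from 1.17 to 1.2) and 9.34 (from 9.21 to 9.48). The ratio was higher at 45 than at 25 DAF in 3 of 3 lines, by 2.61-fold in Youngsan, 1.23-fold for CpFatB4 and 7.88-fold for CpFatB5. Over the 3 lines the log2 change was 1.55 ± 1.35 (SD, n = 3), and an exact two-sided sign-flip permutation test gave p = 0.25, the smallest value 3 lines allow. Since coding lengths were not used, the ratio at a given stage is not a ratio of transcripts, but its change with stage does not depend on length.

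At 25 DAF the CpFatB4 library had the high ratio, 1.79 times that of Youngsan, while Youngsan and CpFatB5 lay near each other. At 45 DAF the CpFatB5 library had 2.91 times the ratio of Youngsan, and the CpFatB4 library 0.840 times. The order of the lines by this ratio was that by level at 25 DAF but not at 45 DAF.

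**Figure D4:**
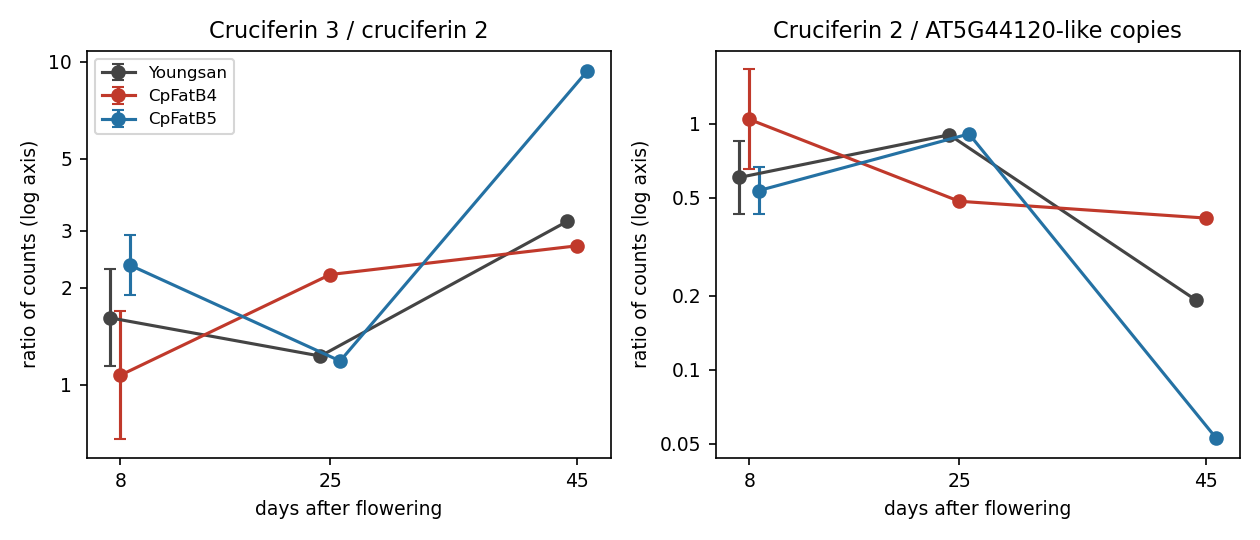
Ratio of counts within each library (log axis) against days after flowering, for cruciferin 3 to cruciferin 2 on the left and for cruciferin 2 to the AT5G44120-like copies on the right, with 95% counting intervals that are smaller than the points after 8 DAF. At 45 DAF the ratio of cruciferin 3 to cruciferin 2 in CpFatB5 is 9.34, against 3.21 in Youngsan and 2.69 in CpFatB4.

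Against the 5 AT5G44120-like copies, cruciferin 3 held its proportion better than cruciferin 2. Its ratio to those copies stayed between 0.976 and 1.26 at 8 DAF and between 1.06 and 1.11 at 25 DAF in the 3 lines. At 45 DAF it stood at 0.615 for Youngsan, 1.12 for CpFatB4 and 0.493 for CpFatB5. The ratio of cruciferin 2 to the same copies went from 0.904 at 25 DAF to 0.192 at 45 DAF in Youngsan, from 0.485 to 0.414 in CpFatB4 and from 0.911 to 0.0528 in CpFatB5, so that it fell 4.72-fold, 1.17-fold and 17.3-fold. Cruciferin 2 was thus the pair that lost more of its proportion in late pods, and it lost least in the CpFatB4 library.

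Against the 8 listed napins both pairs gained from 25 to 45 DAF. The ratio of the 4 cruciferin genes to the napins rose from 0.524 to 3.78 in Youngsan, from 1.10 to 2.39 in CpFatB4 and from 0.223 to 3.88 in CpFatB5. Taken alone, cruciferin 2 gained 3.83-fold on the napins in Youngsan, 1.87-fold in CpFatB4 and 3.68-fold in CpFatB5. Relative to napin counts, the late pods of all lines were richer in counts of these 4 cruciferin genes. The CpFatB4 library changed least.

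The second question was how each transgenic line differed from Youngsan at the same stage. Both comparisons use the same Youngsan libraries. At 25 DAF the CpFatB4 library was higher by log2 fold changes of 1.54 and 1.53 for the cruciferin 3 copies BnaA01g08350D and BnaC01g09900D, which passed the call rule, and by 0.70 for both cruciferin 2 copies, which did not. Among the 25831 genes over the minimum 0.317% were called higher and 0.151% lower in that comparison, and BnaA01g08350D ranked 37 and BnaC01g09900D 38 from the top. In the CpFatB5 library of 25 DAF all 4 genes passed downward, at -1.86, -1.85, -1.80 and -1.80, where 1.11% of 6380 genes were called lower and 0.0784% higher. These genes ranked 23, 24, 27 and 26 from the bottom of that list.

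At 45 DAF the CpFatB4 library had all 4 genes called higher than Youngsan, 6.98-fold for BnaA01g08350D, 7.04-fold for BnaC01g09900D, and 8.35-fold for both BnaA10g02240D and BnaC05g02160D, where 7.57% of the genes over the minimum were called higher and 12.6% lower. With total-count scaling the log2 fold changes of CpFatB4 ran from 2.32 to 2.57, in place of 2.80 to 3.06. The CpFatB5 library of 45 DAF had the cruciferin 2 copies at log2 fold changes of -2.56 and -2.55 against Youngsan. They ranked 2 and 3 from the bottom among 6107 genes, of which 12.8% were called lower and 4.01% higher. The cruciferin 3 copies, at -1.02 and -1.01, lay just past the call threshold, and they missed it with total-count scaling (median -0.96) and with size factors from genes of at least 1000 counts (-0.54).

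At 8 DAF all values were low, with 17 to 144 raw counts per gene and column, and none of the 4 genes reached the minimum of the call rule in any line. Of the genes that did, 2.45% were called higher and 2.3% lower for CpFatB4 against Youngsan, 2.15% and 1.68% for CpFatB5 against Youngsan, and 0.632% and 0.172% for CpFatB5 against CpFatB4. The CpFatB5 library was higher than Youngsan by 2.09 (from 1.59 to 2.59) for BnaA01g08350D and by 1.51 (from 0.85 to 2.17) for BnaA10g02240D on the log2 scale. The CpFatB4 library was lower by 1.08 (from -1.86 to -0.31) for BnaA01g08350D. The line with the highest cruciferin counts in young pods was thus the line with the lowest at 25 and 45 DAF.

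Directly compared, the CpFatB5 library had 10.6-fold less BnaA01g08350D and 5.66-fold less BnaA10g02240D than the CpFatB4 library at 25 DAF. At 45 DAF the gap was 14.1-fold for BnaA01g08350D and 49.2-fold for BnaA10g02240D. With total-count scaling the log2 fold changes at 45 DAF were -3.28 and -5.08, in place of -3.82 and -5.62. All 4 genes were called lower at both stages, against 1.35% of the genes over the minimum at 25 DAF and 18.5% at 45 DAF, where 0.109% and 10.6% were called higher.

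A line difference shared by the 3 stages was not called by limma for any cruciferin gene. For CpFatB4 against Youngsan the log2 fold changes ran from 1.03 to 1.11 with adjusted p from 0.774 to 0.801, and for CpFatB5 from -1.54 to -0.59 with adjusted p from 0.819 to 0.916. No gene at all was called for CpFatB4 (4742 had an unadjusted p under 0.05), and 0.00136% of genes were called higher and 0.00682% lower for CpFatB5. The opposite direction at 8 DAF enters the error of this fit: without the libraries of 8 DAF the values for CpFatB4 became 1.88 to 2.16 and those for CpFatB5 -2.19 to -1.44, again with no gene called.

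**Figure D5:**
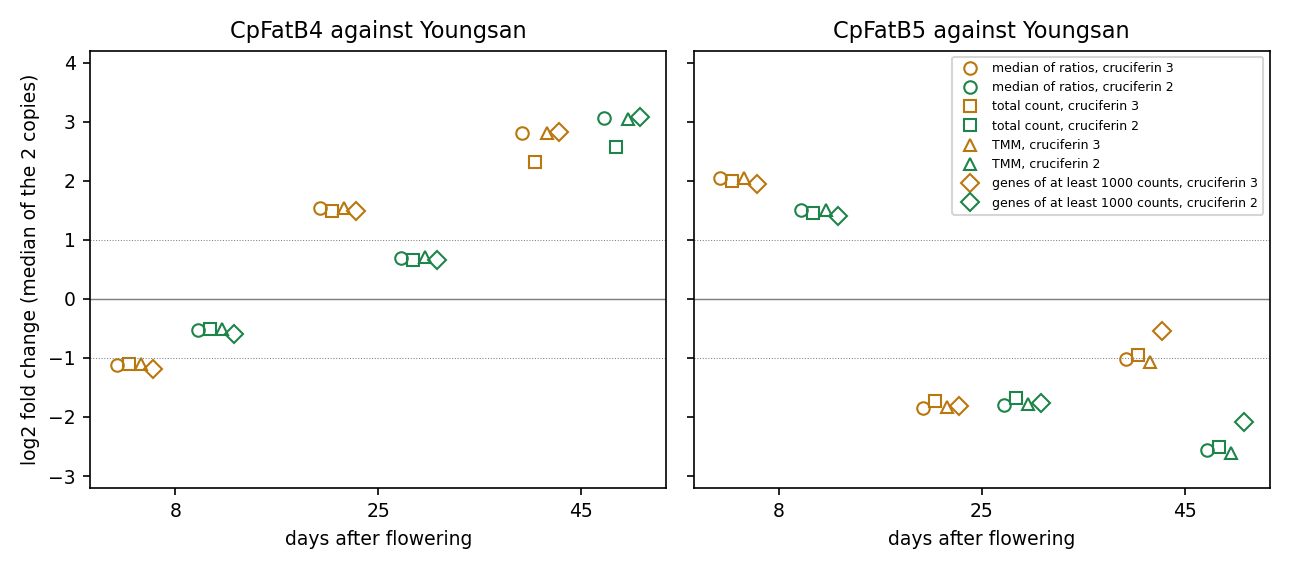
Log2 fold change of each transgenic line against Youngsan for the cruciferin 3 pair (brown) and the cruciferin 2 pair (green) by stage, as the median of the copies, under 4 scalings, with dotted lines at the call threshold. In all scalings CpFatB4 lies below Youngsan at 8 DAF and above it later and CpFatB5 the reverse, while among these values only that of cruciferin 3 in CpFatB5 at 45 DAF crosses the threshold, from -1.01 to -0.96 and -0.54.

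Other seed genes showed which of these line differences the cruciferins shared. At 45 DAF all 8 napins (median 4.15) and all 5 AT5G44120-like copies (1.84) were called higher in CpFatB4. None of the 15 oleosins was (0.46), beside 7.57% of all genes over the minimum (-0.26). In CpFatB5 at 45 DAF 6 of 8 napins were called lower (median -1.34), and these were the 6 over the minimum. So were 1 of 5 AT5G44120-like copies (-0.62) and none of the oleosins (-0.22), beside 12.8% of all genes over the minimum (-0.45). At 25 DAF in CpFatB5 all 5 AT5G44120-like copies (-1.77), 2 of 8 napins (-0.65) and 2 of 15 oleosins (-0.84) were called lower. There 6 of the napins and 12 of the oleosins were over the minimum, and 1.11% of all genes over it were called lower. The cruciferin 2 copies had a larger decrease than the other 12S globulin genes in CpFatB5 at 45 DAF.

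Markers of other tissues and of seed stage moved with the lines too. The seed coat laccase BnaAnng08030D, similar to a gene of flavonoid browning in Arabidopsis, had 7898, 7928 and 8670 normalized counts at 25 DAF in Youngsan, CpFatB4 and CpFatB5, and 385, 949 and 174 at 45 DAF, and the other listed laccase copy BnaC02g38340D had 401, 1020 and 181. The sum of the 25 photosystem genes, which mark green tissue and which the study had listed for falling in these libraries, was 23018, 32059 and 14369 at 45 DAF, against 75766, 70131 and 63167 at 25 DAF. The 5 copies of the late embryogenesis gene LEA M10, a desiccation gene, summed to 214189, 106731 and 228648 at 45 DAF and to 17, 54 and 12 at 25 DAF. By limma, both laccases and 25 of 25 photosystem genes were called lower at 45 than at 25 DAF, beside 30.3% of all genes. The LEA M10 copies were called higher in 5 of 5 cases, beside 18.1% of all genes. The study took the laccase, photosystem and LEA M10 genes from its own comparisons of the same libraries. The counts are therefore no independent evidence of a direction. At 45 DAF the CpFatB4 library was the highest of the lines in laccase counts and the lowest in LEA M10. It was also the highest in normalized photosystem counts, but not as a share of all counts, with 0.0587% against 0.0591% in Youngsan and 0.0383% in CpFatB5. The part of pod composition or of seed stage in the line differences of the cruciferins was not tested.

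The ABI3 copy BnaA03g37510D, named above, had 1060, 1030 and 1026 normalized counts at 25 DAF in Youngsan, CpFatB4 and CpFatB5, and 3287, 3981 and 1657 at 45 DAF. In the same libraries BnaA01g08350D had 101949, 296814 and 28120 at 25 DAF and 387583, 2707171 and 191612 at 45 DAF. Only RNA of whole pods was measured, and the part of ABI3 or any other regulator in the line differences of the cruciferins was not tested. The LEC1 copy BnaA07g10770D, a regulator of early embryo maturation, had 883, 741 and 751 at 25 DAF and 3, 32 and 6 at 45 DAF. The FUS3 copy BnaA02g28280D had 340, 260 and 262 at 25 DAF and 203, 449 and 141 at 45 DAF. At 45 DAF 18 of the 25 regulator copies were higher in CpFatB4 than in Youngsan (median log2 fold change 0.99). Of the 6459 genes with enough counts for the call rule there, 2231 were higher (median -0.26). In CpFatB5 4 regulator copies were higher than in Youngsan (median -0.50), beside 928 of 6107 such genes (median -0.45). The regulators as a list were thus close to the other genes in CpFatB5. In each comparison 10 of the 25 copies had a value at or under the floor of 3 normalized counts. Only 2 of the 25 reached the minimum of the call rule in each comparison. Of the 24 tested regulator copies, 4 rose and 13 fell from 25 to 45 DAF by limma, where 18.1% of all genes were called higher and 30.3% lower. None of the 24 passed the limma test for either line, but no gene at all was called for CpFatB4. For CpFatB5 0.00136% of all genes were called higher and 0.00682% lower, so this count says little about the regulators.

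Across the 9 libraries, the genes with the course most like that of the cruciferin 3 pair were the 5 AT5G44120-like 12S globulin copies. BnaA08g13680D had a mean Pearson correlation of 0.9998 of log2 normalized counts with the 2 cruciferin 3 copies, followed by BnaA02g22500D (0.998), BnaA06g36310D and BnaC07g48660D (0.997) and BnaCnng58970D (0.996), among 6080 genes with a mean of at least 1000 normalized counts. BnaA08g13680D had 48658, 147641 and 12106 normalized counts at 25 DAF in Youngsan, CpFatB4 and CpFatB5 and 226108, 1464672 and 106536 at 45 DAF. For the cruciferin 2 pair the most similar were the albumin copies BnaC07g40770D and BnaA03g48490D (both 0.997), which the study annotates as seed storage albumin 3. They had 18045 and 16980 normalized counts at 25 DAF and 12005 and 11336 at 45 DAF in Youngsan.

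Next for the cruciferin 2 pair came BnaC09g48030D (0.995), BnaC08g43590D (0.995) and BnaC09g03700D (0.994), for which no annotation was used here. The cruciferin pairs had a correlation of 0.990 with each other, lower than with these neighbours. All of these correlations rest on 9 libraries that share the large step from 8 to 25 DAF, and related 12S sequences may share reads, so they describe the course and give no test.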

How the data were processed

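Whole pods of 3 lines were sequenced at 3 stages, as paired reads from an Illumina TruSeq library. Per the study's methods, the authors trimmed bases under a quality of 20, dropped reads under 25 bp, mapped the reads on the rapeseed coding sequences of Genoscope with Bowtie2 2.1.0 allowing 2 mismatches, and scaled the counts per gene with DESeq. The deposited table holds 18 columns of raw counts, written with grouping commas and with no value under 1, and 13 columns of scores, the normalized values that the authors rounded. Normalized counts from size factors by the median of ratios over the 18 columns differed from the deposited scores by at most 0.5. A library's value is the mean of its 2 columns.

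Fold changes used a floor of 3 normalized counts, which no cruciferin value reached. The main test was limma 3.58.1 (voom, R 4.3.3) on summed counts of all 9 libraries with line and stage as terms, on genes reaching the equivalent of 10 counts in at least 3 libraries, two-sided, with Benjamini-Hochberg adjustment over all genes at 0.05. It takes the 3 lines, or the 3 stages, as the replicates of an effect shared by them. A negative binomial test was not used because the counts are written with grouping commas, though they were read as whole numbers, so the reason is not statistical. The fit was tested on simulated counts in which no gene differed between the lines and stage changes were equal in all lines. Stage changes that differ between lines, like those of the cruciferin genes, were not simulated. The calls for pairs of libraries have no test. Shares and ratios carry 95% Wilson intervals.

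The cruciferin genes and the lists (napins, 12S globulin copies like AT5G44120, 7S vicilin-like copies, oleosins, LEA M10, regulators, laccases, photosystem genes) were chosen with earlier results of these data known, most from the study's own tables, and are no independent evidence. Named genes were the 4 cruciferins, genes of a list that a sentence is about, and the 5 genes most correlated with each pair. Gene positions and sequences were not used here. Alternatives were other scalings, minimums, single columns, other filters and leaving out a line or a stage.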

Additional observations from a re-analysis of the deposited data

Results flagged for a closer look

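The transgenic lines moved in opposite directions against Youngsan at each stage, with 1 library per line, and the difference was not tested. For the summed cruciferin 3 pair the log2 fold changes of CpFatB4 and CpFatB5 were -1.12 and 2.04 at 8 DAF, 1.54 and -1.85 at 25 DAF, and 2.81 and -1.01 at 45 DAF. For the cruciferin 2 pair they were -0.53 and 1.5 at 8 DAF, 0.70 and -1.80 at 25 DAF, and 3.06 and -2.56 at 45 DAF. For CpFatB4 at 8 DAF the counting interval covered 0 for both cruciferin 2 copies. From 25 to 45 DAF the cruciferin 2 pair changed by 0.54 in Youngsan and 2.90 in CpFatB4 but by -0.22 in CpFatB5, also not tested, and the last value was positive with size factors from genes of at least 1000 counts (0.46).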

How the results depend on the processing

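The number of cruciferin genes past the call rule was within 1.5 times of its value in 115 of 120 alternatives over 15 pairs of libraries. With no minimum, 2 genes passed for CpFatB4 against Youngsan at 8 DAF and 4 each for CpFatB5 against Youngsan and against CpFatB4, where none had passed. For CpFatB5 against Youngsan at 45 DAF it was 2 in place of 4 with total-count scaling and with size factors from genes of at least 1000 counts. The limma count for 45 against 25 DAF was 0 and became 2 with size factors from genes of at least 1000 counts; leaving out a line gave 0 to 2, and leaving out 8 DAF gave 2. The other limma counts did not change in any alternative run. BnaA01g08350D and BnaC01g09900D turned from lower to higher in CpFatB5 against Youngsan when 25 DAF was left out (0.89 and 0.83, neither called; -1.45 and -1.44 when 8 DAF was left out). The cause was not tested for any of these.

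The ratio of cruciferin 3 to cruciferin 2 moved beyond its counting interval in 14 of 36 alternatives. From the A copies only it was 1.26 and 3.29 at 25 and 45 DAF for Youngsan, 2.26 and 2.76 for CpFatB4, and 1.21 and 9.59 for CpFatB5; from the C copies only it was 1.2 and 3.12, 2.13 and 2.63, and 1.16 and 9.09. In CpFatB4 at 45 DAF the first column gave 2.688 and the second 2.700. Over the 4 genes, the median log2 fold change left its counting interval in 26 of 90 alternatives and kept its sign in each.

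With 1 library per line and stage, the spread between plants is unknown, and intervals cover counting error only. Values at 8 DAF rest on at most 144 counts per gene and column. The line entered the stage fit as a block; without it 4 genes were called for 25 against 8 DAF and 0 for 45 against 25 DAF, as with it.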
